A study of Homo sapiens with 4 samples.

Results

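The genes described here are 10 transcription factor and response genes of the AP-1 and immediate early class: FOS, FOSB, FOSL1, FOSL2, JUN, JUNB, JUND, EGR1, IER2 and IER3. They were taken by gene name from a deposited table of 28482 genes, in which all 10 were found once each. Their RNA was sequenced in K562/G01, a line that resists imatinib and derives from K562, an established line from chronic myeloid leukemia that carries the BCR-ABL1 fusion kinase inhibited by imatinib. The 4 groups were cells infected with a scramble lentivirus, cells infected with a lentivirus that knocks down TCF7, which encodes a Wnt-pathway transcription factor, and each of these given imatinib at 1 µM for 48 hours. All groups thus share the resistant line and a lentiviral infection. Each group has 1 library, and whether infections or treatments were done in separate cultures is not stated in the labels.

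AP-1 is a family of dimers of leucine zipper proteins. JUN proteins pair with each other or with FOS proteins, whereas FOS proteins need a JUN partner to bind DNA. Immediate early genes are switched on within minutes of a growth factor or stress signal, without new protein synthesis, and their mRNAs are short-lived. ERK, the kinase at the end of the RAS pathway that BCR-ABL1 drives, phosphorylates factors bound beside SRF at CArG boxes in many of their promoters. Levels after 48 hours therefore describe a lasting state of the culture, not the first response to the drug.

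Promoter sequences of 8 members (all but FOSL1 and IER3) were found in a RefSeq table on GRCh38.p14 and searched over the 250 bases before the start, on both strands. The EGR1 and JUND windows below carry motifs through which immediate early genes are known to be switched on. The JUNB window is shown for its TATA box, a motif found in 10.7% of all promoters searched. Capitals mark the motif and positions count back from the start. EGR1 had CArG boxes, the sites bound by SRF, at -105 and -83, in a window from chr5:138465359-138465418 on the plus strand. JUND had a cAMP response element, TGACGTCA, at -200, in chr19:18281793-18281852 on the minus strand. JUNB had a TATA box, TATAAA, at -31, in chr19:12791426-12791485 on the plus strand.
EGR1: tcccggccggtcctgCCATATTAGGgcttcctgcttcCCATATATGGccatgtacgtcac
JUND: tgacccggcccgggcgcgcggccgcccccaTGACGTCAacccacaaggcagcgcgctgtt
JUNB: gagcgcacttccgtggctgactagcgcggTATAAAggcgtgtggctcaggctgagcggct

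A CArG box was present in 1.16% of the 35116 promoters of the table and in 1 of 8 member promoters, the cAMP response element in 1.65% and in 1 of 8, and TATAAA in 10.7% and in 3 of 8 (FOS, FOSB and JUNB). The TCF/LEF core CTTTGAT was in 2.26% of all promoters and in 0 of 8 members, the AP-1 site TGANTCA in 6.57% and in 0, and the EGR site GCGTGGGCG in 0.72% and in 0. These counts describe letters in a short window and not binding.

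The members differ in base composition, a property set beside the imatinib values below. JUND, whose longest transcript has the highest GC content of the members (69.7%), and FOS, whose longest transcript has the lowest (52.6%), are shown by the 90 coding bases with the highest GC content in each. The stretch of JUND lies at coding positions 478 to 567 (chr19:18280918-18281007, GRCh38, minus strand) and is 93.3% G or C. That of FOS lies at coding positions 223 to 312 (chr14:75279958-75280047, plus strand) and is 73.3% G or C.
JUND: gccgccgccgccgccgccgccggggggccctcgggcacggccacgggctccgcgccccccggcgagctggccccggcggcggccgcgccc
FOS: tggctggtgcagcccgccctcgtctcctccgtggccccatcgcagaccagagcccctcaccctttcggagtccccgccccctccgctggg

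The deposited counts summed to between 30634832 and 34095585 per library. Levels are given as CPM, the count scaled to a common library total after TMM normalisation, and the 13296 genes that reached 1 CPM in 2 or more libraries were tested. The target of the hairpin, TCF7, stood at 10.2 CPM in scramble, 2.56 in knockdown, 10.7 in scramble with imatinib and 3.70 in knockdown with imatinib, so both knockdown libraries were below both scramble libraries. The labels give the source as leukocyte; erythroid markers that define K562 were present in all libraries, among them GATA1 at 86.0 to 133 CPM, TFRC at 1149 to 1400 and HBG2 at 270.1 to 382. Of the 10 erythroid markers, 0 were called for knockdown, against 7.14% of all genes. For imatinib 3 rose, among them GATA1 and KLF1, and 4 fell, among them HBG2, against 13.8% and 7.08% of all genes. With offsets for the GC content and length of transcripts, described below, HBE1 (log2 fold change -0.19) and HBG2 (-0.16) were called as lower for knockdown. For imatinib 1 marker then rose and 2 fell, and GATA1 and KLF1 were not called. In that fit 12.7% of all genes were called for knockdown, and 4.41% rose and 1.37% fell for imatinib. Among the lymphoid markers in the table CD3D, at 13.8 to 20.8 CPM, was the only 1 tested, and the others lay between 0 and 2.18 CPM; CD3E and CD4 were at or near 0. Among monocyte and granulocyte markers MPO, CD14 and CSF1R lay under 1 CPM, LYZ, the lysozyme gene, lay between 35.9 and 44.3 CPM and was not called, and ITGAM rose with knockdown, from 1.96 to 3.71 CPM and under imatinib from 1.31 to 3.22. COL1A1, a fibroblast collagen, rose with knockdown from 0.151 to 1.38 CPM and under imatinib from 0.203 to 1.01. Of the epithelial genes, KRT8 (0.36) and KRT18 (0.30) rose and EPCAM (-0.25) fell under imatinib on the log2 scale. With the offsets they stood at 0.18, 0.14 and -0.17, and none of them was called. The summed level of the 8 epithelial and fibroblast markers was 402 and 389 CPM in the untreated libraries against 450.1 and 495 with imatinib, and its part in the imatinib results was not tested. The 7 monocyte and granulocyte markers in the table summed to 38.6 and 40.5 CPM in the scramble libraries, against 48.2 and 45.6 in the knockdown libraries. LYZ alone supplied 35.9 and 38.7 CPM of this in scramble and 44.3 and 42.1 in knockdown. FCGR3A and S100A8, under 1 CPM, went from 10 and 5 counts in untreated scramble to 1 and 0 in untreated knockdown. The part of the summed level in the knockdown results below was not tested. In a bulk culture, fewer expressing cells and less RNA per cell cannot be told apart.

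Among the FOS genes, FOSL1 supplied most of the RNA. Between genes, levels are compared on the deposited FPKM values, which are per gene length and are treated here as a score. FOSL1, which encodes the stable FOS-related protein FRA1, stood at 24.8 in scramble, 18.9 in knockdown, 24.7 in scramble with imatinib and 23.8 in knockdown with imatinib. FOSL2, which encodes FRA2, followed at 1.54, 2.33, 1.85 and 2.41. FOS and FOSB, the classical members that signals induce within minutes, were lowest, at 0.345, 0.514, 0.389 and 0.370 for FOS and 0.136, 0.129, 0.143 and 0.187 for FOSB. FOSL1 made up 92.5%, 86.4%, 91.2% and 88.9% of the family's summed value in the same order of libraries. The order FOSL1, FOSL2, FOS, FOSB was the same in every library, with no overlap of values between neighbours over the 4 libraries.

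Among the JUN genes, JUND was highest, then JUNB, then JUN, in every library. JUND, whose product is made in resting as well as in growing cells, stood at 26.3, 22.4, 37.1 and 45.5 on the deposited FPKM scale. JUNB, a JUN protein that can restrain JUN activity, stood at 14.4, 14.5, 21.9 and 25.1. JUN, the founding member, stood at 3.59, 3.28, 4.42 and 5.15. The levels of JUND and JUNB overlap when all 4 libraries are pooled, since JUNB in the knockdown library with imatinib was above JUND in the knockdown library. The summed JUN family value was 1.65 and 1.83 times the summed FOS family value in the untreated scramble and knockdown libraries. Under imatinib it was 2.34 and 2.83 times. These sums were not adjusted for GC content, described below, and JUND and JUNB supply most of the JUN sum. With the trend over GC content and length removed, the log2 imatinib ratios of JUND were -0.00 in scramble and 0.15 in knockdown cells. Those of JUNB were 0.17 and 0.13, and those of FOSL1 -0.28 and -0.12. Of the remaining genes, EGR1, a zinc finger factor, lay between 15.6 and 20.0, IER2, a nuclear protein of immediate early type, between 9.73 and 18.4, and IER3, a stress-induced regulator of survival, between 9.12 and 19.7.

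**Figure D1:**
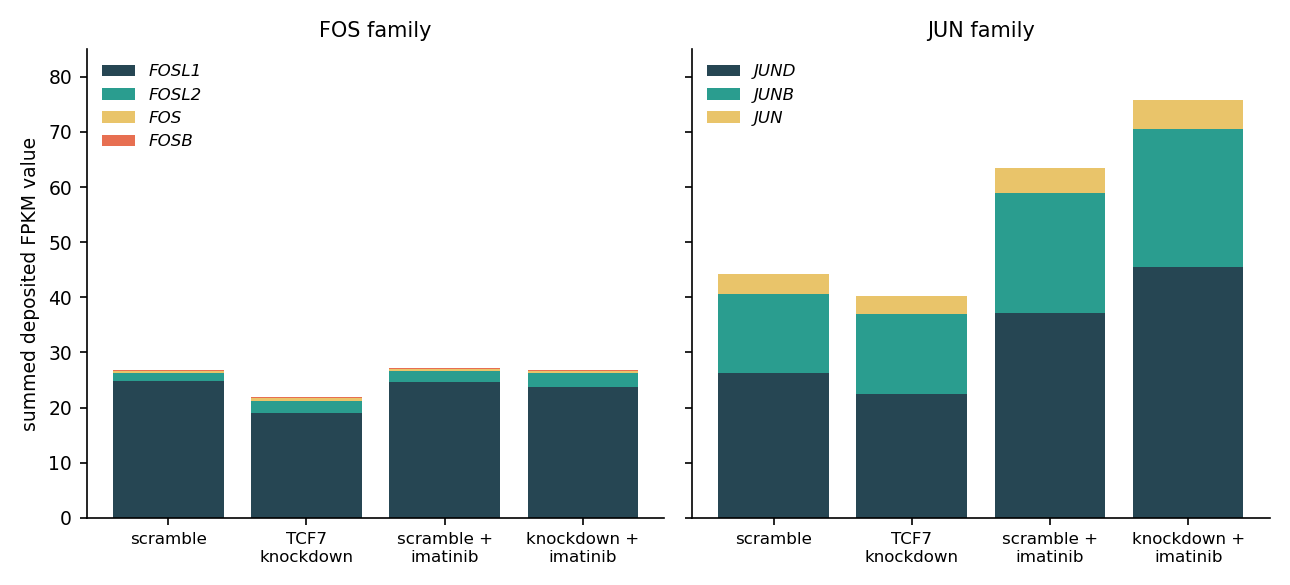
Summed deposited FPKM values of the FOS family (left) and the JUN family (right) in the 4 libraries, 1 per group; colours within a bar stand for the genes. FOSL1 fills 86.4% to 92.5% of the FOS bars, and the JUN bars reach 63.4 and 75.8 under imatinib against 44.2 and 40.2 without. The values are not adjusted for the GC content of the transcripts.

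Of the 10 members 9 passed the filter on low counts. FOSB did not: it had 25, 22, 27 and 33 counts in scramble, knockdown, imatinib-treated scramble and imatinib-treated knockdown, or 0.755, 0.723, 0.784 and 1.04 CPM. Its counting intervals overlap in all 4 libraries, so no difference was detectable at this depth. ERCC1, which overlaps FOSB on the opposite strand, had 1401, 1433, 1714 and 2030 counts in the same order of libraries. The strand setting of the counting is not known, and whether reads of ERCC1 enter the FOSB counts was not tested. A log2 ratio below compares 2 libraries, has no replicate check, and carries a 95% exact binomial interval that covers counting error only. The test of knockdown uses 2 libraries against 2, in an edgeR quasi-likelihood fit with both factors and Benjamini-Hochberg adjustment over all 13296 genes. Its error comes from how far the pairs disagree, shared largely across genes (1 residual and 33.8 prior degrees of freedom). The p-values thus set a change mostly against a spread common to the table, not against that gene's own disagreement. This spread may be technical and includes any difference of the knockdown effect between the imatinib states. A lasting difference between the knockdown and scramble cultures cannot be told apart from an effect of TCF7.

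**Figure D2:**
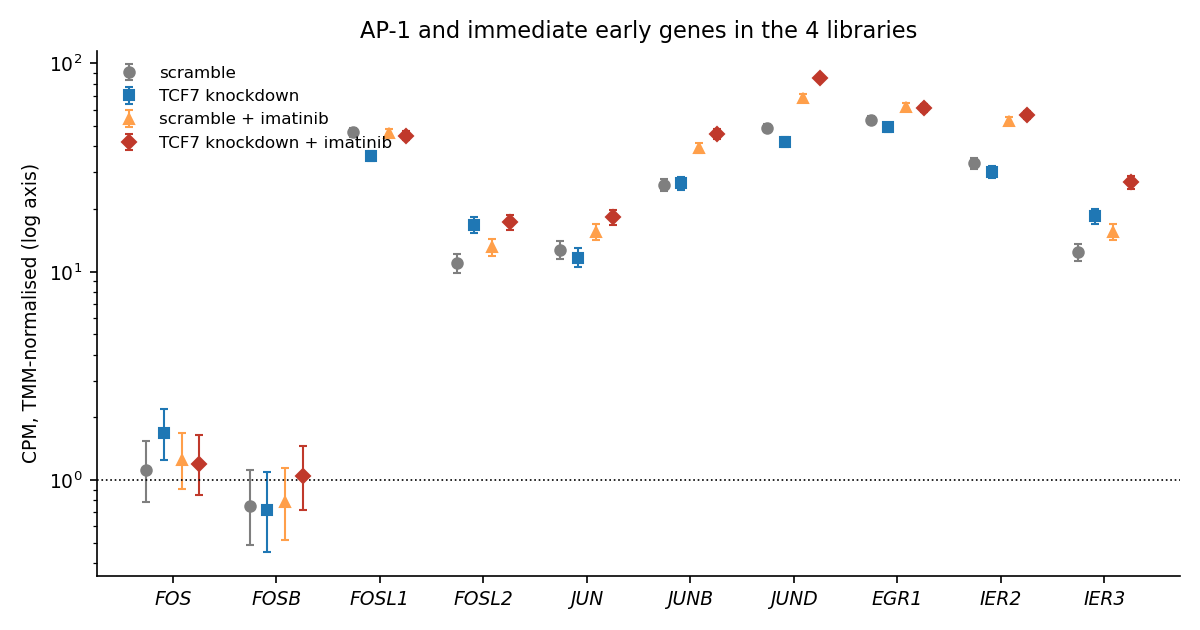
Level of each member in CPM (log axis) in each of the 4 libraries, 1 point per library, with the 95% exact Poisson interval of its count; the dotted line marks 1 CPM. FOS and FOSB lie near 1 CPM with overlapping intervals, and JUNB, JUND and IER2 lie higher in both imatinib libraries than in both untreated ones.

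With TCF7 knockdown, FOSL2 and IER3 rose, and 0 members fell. Across all genes 3.8% were called higher and 3.34% lower with knockdown, 7.14% in all. FOSL2 (chromosome 2, 28392448 to 28417312) had 11.0 CPM in scramble, 16.8 in knockdown, 13.1 in scramble with imatinib and 17.3 in knockdown with imatinib. Both knockdown libraries lay above both scramble libraries. Its log2 ratio was 0.60 (0.41 to 0.81) without imatinib and 0.40 (0.22 to 0.58) under imatinib, and over both states the log2 fold change was 0.50 (SE 0.142, edgeR adjusted p = 0.0231). The call was lost with DESeq2 (adjusted p = 0.336) and with limma on the deposited FPKM values (adjusted p = 0.218 and 0.211 with pseudocounts of 0.1 and 1), with log2 fold changes of 0.50, 0.47 and 0.33.

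IER3 (chromosome 6, 30743199 to 30744554), which is induced by NF-kB, p53 and ERK signals, had the largest log2 fold change over both states of the 9 tested members. It had 12.4 CPM in scramble, 18.4 in knockdown, 15.6 in scramble with imatinib and 26.8 in knockdown with imatinib, so each knockdown library was above each scramble library and the library with both treatments was highest. The log2 ratio was 0.57 (0.39 to 0.76) without imatinib and 0.78 (0.63 to 0.94) under imatinib. Over both states it rose by a log2 fold change of 0.68 (SE 0.131, edgeR adjusted p = 0.000499), and DESeq2 (adjusted p = 0.0246) and limma (0.0224 and 0.0319) also called it. The antisense gene IER3-AS1 had 24, 8, 17 and 16 counts where IER3 had 410, 561, 536 and 849; the strand setting of the counting is not given in the sources used here.

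FOSL1 (chromosome 11, 65892049 to 65900573) was lowest in the knockdown library without imatinib. It had 46.8 CPM in scramble, 36.0 in knockdown, 46.2 in scramble with imatinib and 45.0 in knockdown with imatinib, so 1 library stood apart and the other 3 lay close together. The log2 ratio was -0.38 (-0.49 to -0.27) without imatinib and -0.04 (-0.14 to 0.07) under imatinib, and FOSL1 was not called (log2 fold change -0.21, SE 0.0987, edgeR adjusted p = 0.242). With offsets for the GC content and length of transcripts, described below, it was called as lower (log2 fold change -0.26, adjusted p = 0.0174); in that fit 7.01% of all genes were called higher and 5.64% lower, 12.7% in all. FOSL1 is the only member whose knockdown libraries both lay below both scramble libraries, an order shown by 15.8% of all tested genes, while FOSL2 and IER3 showed the opposite order, as did 16.4% of genes.

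FOS (chromosome 14, 75278774 to 75282230) had 37 counts in scramble, 51 in knockdown, 43 in scramble with imatinib and 38 in knockdown with imatinib, or 1.12, 1.68, 1.25 and 1.20 CPM. It was not called (edgeR adjusted p = 0.787), and its ratios of 0.56 (-0.05 to 1.24) and -0.05 (-0.72 to 0.61) both include 0, so no difference was detectable at this depth. The JUN genes, EGR1 and IER2 were not called for knockdown either, with log2 fold changes between -0.07 and 0.13 and adjusted p between 0.558 and 0.960. At 2-fold or more, 0 of 9 members were past the limit in either knockdown pair. Of all genes, 0.925% were 2-fold higher and 1.75% lower without imatinib (2.68% in all), and 1.32% and 1.51% under imatinib (2.83% in all). At 1.5-fold or more, FOSL2 alone was past the limit without imatinib, where 3.67% of all genes were higher and 5.51% lower (9.18% in all). IER3 alone was past it under imatinib, where 5.26% were higher and 4.69% lower (9.96% in all).

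When 1 library was left out, only a fit without the term for imatinib could be made, in which the remaining imbalance enters the estimate. IER3 was then called when the untreated knockdown library was left out (edgeR adjusted p = 0.000944), as was JUND (log2 fold change 0.52, adjusted p = 0.0240). IER3 was lost when the untreated scramble, the treated scramble or the treated knockdown library was left out (adjusted p = 1.00, 0.755 and 0.559), and FOSL2 was lost each time (0.198 to 1.00). With all 4 libraries and no term for imatinib neither was called (0.587 and 0.686). Over all 13296 genes these fits called 759 without the untreated knockdown library, 34 without the untreated scramble, 49 without the treated scramble and 242 without the treated knockdown library, and 0 with all 4 libraries (818 at an unadjusted p under 0.05).

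**Figure D3:**
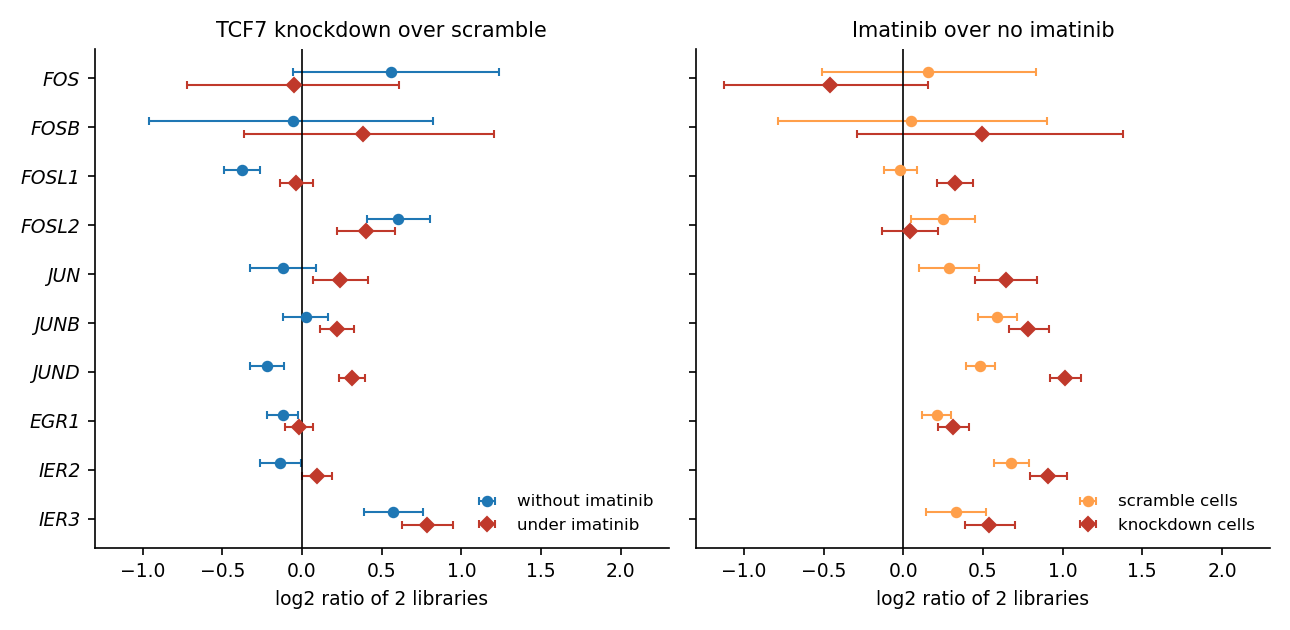
Log2 ratios of single libraries for each member, with 95% exact binomial intervals for counting error; left, TCF7 knockdown over scramble without and under imatinib, and right, imatinib-treated over untreated cells of each hairpin. FOSL2 and IER3 lie right of 0 in both knockdown pairs. In both imatinib pairs the JUN genes, EGR1, IER2, IER3, FOSL2 and FOSB lie right of 0. The interval includes 0 for FOSL2 in knockdown cells and for FOSB in both pairs. Of the 9 tested members 7 are above 0 in both imatinib pairs, as are 36.9% of all tested genes.

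Under imatinib all 3 JUN genes, EGR1, IER2 and IER3 rose, and no FOS gene did. These 6 of 9 tested members stand against 13.8% of all genes called higher and 7.08% called lower, 20.9% in all, and 0 members fell. With offsets for the GC content and length of transcripts, described below, only IER2 of the 6 was still called, and DESeq2 called 3 of them, IER2, JUNB and JUND. Imatinib was tested in the same fit, over both knockdown states. IER2 (chromosome 19, 13150415 to 13154908) had 33.1 CPM in scramble and 30.1 in knockdown, and with imatinib 53.0 in scramble and 56.6 in knockdown. The imatinib libraries were thus well above the untreated ones, with log2 ratios of 0.68 (0.57 to 0.79) in scramble and 0.91 (0.80 to 1.03) in knockdown cells. Over both states IER2 rose by 0.80 on the log2 scale (SE 0.0973, edgeR adjusted p = 6.94e-07), the largest change of the members.

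JUND (chromosome 19, 18279760 to 18281622) had 49.0 CPM in scramble and 42.0 in knockdown, and 68.4 and 85.1 with imatinib. It was the only member past 2-fold in any pair, in knockdown cells, with a log2 ratio of 1.02 (0.92 to 1.12), where 2.64% of all genes were 2-fold higher; in scramble cells the ratio was 0.48 (0.39 to 0.58). At 1.5-fold or more, JUNB and IER2 were past the limit in scramble cells, where 4.4% of all genes were higher and 2.37% lower (6.77% in all). JUN, JUNB, JUND and IER2 were past it in knockdown cells, where 11.7% were higher and 3.74% lower (15.4% in all). JUND rose by a log2 fold change of 0.75 (SE 0.0975, edgeR adjusted p = 1.71e-06), and with the offsets its log2 fold change was 0.11 and not called (adjusted p = 0.476).

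JUNB (chromosome 19, 12791496 to 12793315) had 26.1 CPM in scramble and 26.6 in knockdown, and 39.4 and 45.9 with imatinib. The untreated libraries were close to each other and both imatinib libraries were above them, with log2 ratios of 0.59 (0.47 to 0.72) and 0.79 (0.66 to 0.91). JUNB rose by 0.69 (SE 0.103, edgeR adjusted p = 1.11e-05), against 0.20 with the offsets, not called. HOOK2, which overlaps JUNB on the opposite strand, had 375, 353, 432 and 491 counts in scramble, knockdown, imatinib-treated scramble and imatinib-treated knockdown, against 866, 809, 1357 and 1451 for JUNB.

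JUN (chromosome 1, 58780788 to 58784327) had 12.7 CPM in scramble and 11.7 in knockdown, and 15.5 and 18.3 with imatinib. The log2 ratios were 0.29 (0.10 to 0.47) and 0.64 (0.45 to 0.84), and JUN rose by 0.47 (SE 0.144, edgeR adjusted p = 0.0196), against 0.27 with the offsets, not called. EGR1 (chromosome 5, 138465490 to 138469315), an early readout of ERK, had the smallest change of the 6. It had 53.7 CPM in scramble and 49.3 in knockdown, and 62.1 and 61.3 with imatinib, which gave log2 ratios of 0.21 (0.12 to 0.30) and 0.31 (0.22 to 0.41) and a log2 fold change of 0.26 (SE 0.0876, edgeR adjusted p = 0.0305), against 0.10 with the offsets, not called. For JUN, JUNB, JUND, EGR1 and IER2 both imatinib libraries lay above both untreated ones, as for 27.9% of all tested genes. IER3 did not show that order, because its untreated knockdown library was above its scramble library with imatinib; its log2 ratios were 0.33 (0.14 to 0.52) and 0.54 (0.39 to 0.70), and it rose by 0.44 (SE 0.130, edgeR adjusted p = 0.0148), against 0.20 with the offsets, not called.

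The FOS genes showed small or mixed imatinib ratios. FOSL1 had log2 ratios of -0.02 (-0.12 to 0.08) in scramble and 0.32 (0.21 to 0.44) in knockdown cells. With the trend over GC content and length removed both were below 0, at -0.28 and -0.12. FOSL2 had 0.25 (0.05 to 0.45) and 0.04 (-0.13 to 0.22), and FOS 0.15 (-0.51 to 0.84) and -0.46 (-1.13 to 0.15). The edgeR adjusted p of these 3 genes lay between 0.287 and 0.806. FOSB, which was not tested, had 0.05 (-0.78 to 0.90) and 0.49 (-0.29 to 1.38).

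The imatinib fold changes went with the GC content of the transcript. GC content and the log2 fold change of imatinib had a Spearman correlation of 0.77 across 10095 genes whose mean was at least 5 CPM; genes are not independent replicates and share the 4 libraries. Whether GC content plays a part in the imatinib results was not tested beyond the fit given here. The members are GC-rich: their longest transcripts run from 52.6% for FOS and 53.3% for FOSL2 over 55.4% for EGR1, 56.7% for JUN, 58.5% for IER3, 60.0% for FOSL1 and 61.7% for IER2 to 64.9% for JUNB and 69.7% for JUND, against a median of 47.3% over all tested genes. JUND lay above 99.8% of tested genes and JUNB above 96.9%. Each library's smooth dependence on transcript GC content and length was then entered as an offset. IER2 alone was still called among the 9 tested members, where 4.41% of all genes were called higher and 1.37% lower, 5.78% in all. IER2 had a log2 fold change of 0.42 in that fit (adjusted p = 5.03e-05). JUND was then at 0.11 (adjusted p = 0.476), JUNB at 0.20 (0.182), JUN at 0.27 (0.257), EGR1 at 0.10 (0.506) and IER3 at 0.20 (0.398). FOSL1 changed sign, to -0.15 (0.321).

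**Figure D4:**
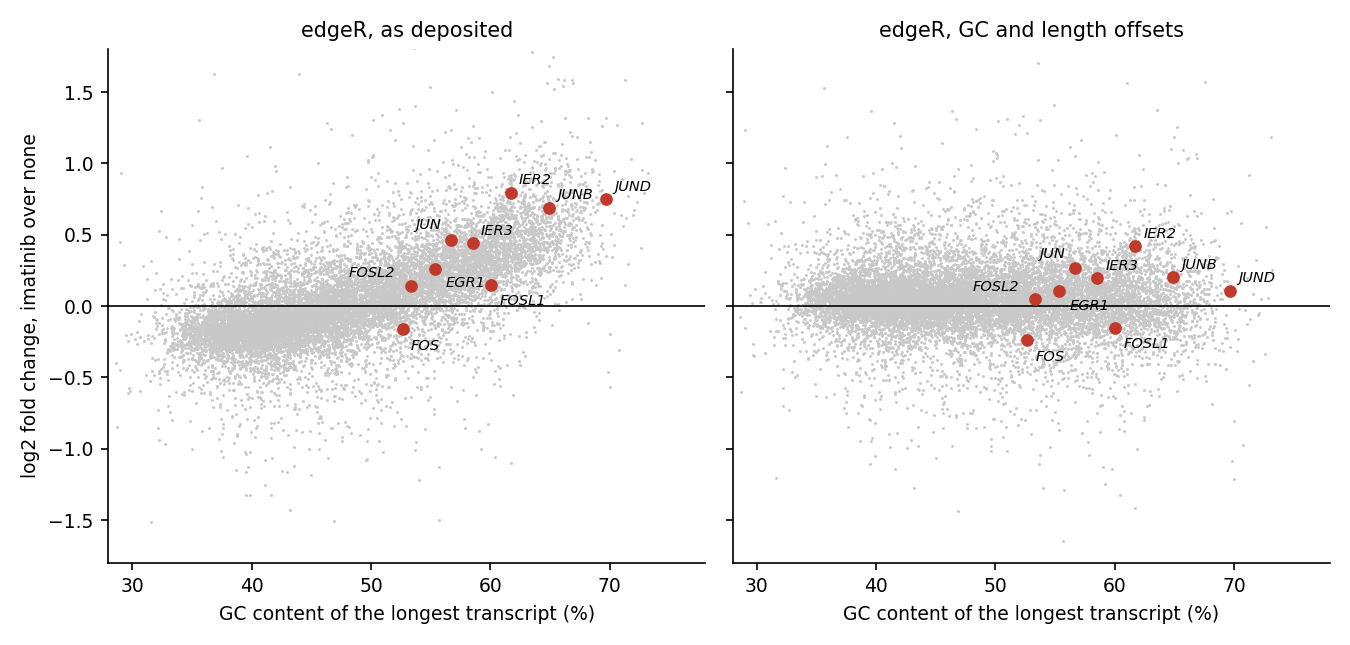
Log2 fold change of imatinib over none against the GC content of the longest transcript, for 13255 tested genes (grey) and 9 members (red), in the edgeR fit on the counts as deposited (left) and with GC and length offsets (right); 13 genes lie outside the axes. The grey cloud climbs with GC content on the left and is level on the right, where IER2 stays highest of the members at 0.42 and JUND comes down from 0.75 to 0.11.

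The pairs moved in the same way when the trend was removed from each ratio. JUND went from 0.48 and 1.02 to -0.00 and 0.15, JUNB from 0.59 and 0.79 to 0.17 and 0.13, and IER2 from 0.68 and 0.91 to 0.36 and 0.39. The knockdown ratios of FOSL2 (0.65 and 0.38) and IER3 (0.60 and 0.67) with the trend removed stayed inside the counting intervals of the values above, and both were still called with the offsets (adjusted p = 0.00225 and 8.25e-06). JUN, JUNB, JUND, IER2 and IER3 have 1 exon in their longest annotated transcript. Of 390 tested protein-coding genes with 1 exon there, 27.9% rose under imatinib in the fit without offsets, against 15.8% of 10545 with more. Their median GC content was 50.7% against 47.7%, and exon number apart from GC content was not tested.

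Other tools kept part of the imatinib calls. DESeq2 called IER2 (adjusted p = 5.12e-06), JUND (3.89e-05) and JUNB (0.000406), and not IER3 (0.128), JUN (0.150) or EGR1 (0.163). Limma on log2 of the deposited FPKM value plus 0.1 called IER2, JUNB, JUND and IER3, and not EGR1 (adjusted p = 0.0665) or JUN (0.0790). EGR1 was also lost without the filter on low counts (edgeR adjusted p = 0.0706). In fits without the term for knockdown, 0 members were called with all 4 libraries, and 0 without the scramble, the knockdown or the knockdown library with imatinib, while JUND, IER2 and JUNB were called without the scramble library with imatinib (adjusted p = 0.0164, 0.0206 and 0.0250). Over all genes the count was also 0 in each of the former fits and 579 in the last, so these counts follow those of the whole table; DESeq2 called 1003 genes.

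For several members the knockdown ratios without and under imatinib were unequal beyond counting error, a difference of 2 ratios over 4 single libraries that was not tested. The share of all tested genes with such a difference was not counted, so whether the members differ from other genes here is not known. JUND had a knockdown ratio of -0.22 (-0.33 to -0.12) without imatinib and 0.31 (0.23 to 0.39) under imatinib, a difference of 0.54 (0.40 to 0.67 for counting error). JUN had -0.12 (-0.33 to 0.09) and 0.24 (0.07 to 0.41), a difference of 0.36 (0.09 to 0.62), and FOSL1, from the values above, a difference of 0.34 (0.19 to 0.49). The difference was 0.23 for IER2, 0.20 for JUNB, 0.21 for IER3, 0.10 for EGR1, -0.21 for FOSL2 and -0.61 for FOS, where the intervals of IER3, EGR1, FOSL2 and FOS include 0. GC content also went with the knockdown ratio under imatinib (Spearman correlation 0.37 across 10095 genes) and less without it (-0.11). With the trend removed the differences were 0.18 for JUND, 0.24 for JUN, 0.17 for FOSL1, 0.03 for IER2 and -0.06 for JUNB.

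Other genes of the pathway were read from lists drawn up by function, and their counts stand against 3.8% of all genes called higher and 3.34% lower for knockdown and 13.8% and 7.08% for imatinib. Of 13 other dimer partners of the ATF, BATF and MAF families 7 were tested. With knockdown 1 fell and 0 rose: ATF3, a stress-induced partner of JUN, had 3.44, 1.12, 2.70 and 1.07 CPM in scramble, knockdown, imatinib-treated scramble and imatinib-treated knockdown, a log2 fold change of -1.47 (SE 0.348, edgeR adjusted p = 0.00521). Under imatinib MAFK, a small MAF protein, rose (0.58) and ATF2, a partner of JUN, fell (-0.21), and neither was called with the GC and length offsets. The median log2 fold change of the 7 was -0.17 for knockdown and 0.07 for imatinib, against 0.01 and -0.00 over all genes.

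Of 26 other immediate early genes measured, 16 were tested. ZFP36L1, which promotes mRNA decay, rose with knockdown (log2 fold change 0.29, edgeR adjusted p = 0.0408), and 0 fell. Under imatinib 3 rose and 0 fell: CSRNP1 (0.51), IER5, a relative of IER2 (0.43), and PPP1R15A, which reverses the stress block of translation (0.38). With the offsets IER5 was still called (0.42), CSRNP1 and PPP1R15A were not, and BTG1, an inhibitor of growth, was called in addition (0.28). For knockdown the offsets called BTG1 as higher too (0.22). The median of the 16 was -0.02 for knockdown and 0.16 for imatinib. EGR2, EGR3, EGR4, NR4A3, KLF2 and KLF4 stayed under 1 CPM in every library.

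Of 20 kinases upstream of AP-1 19 were tested, and 0 were called for knockdown in the edgeR fit. Under imatinib 5 rose and 1 fell, with a median of -0.00. The largest changes were those of RPS6KA4, which encodes MSK2 (0.85), MAPK11, a p38 kinase (0.78), MAP2K3, which activates p38 (0.64), and MAP2K2, which encodes MEK2 (0.63). MAP2K2 was the only 1 of these 4 still called with the offsets (0.28), and MAPK3, which encodes ERK1, was then called as lower (-0.41). For knockdown the offsets called RPS6KA5, which encodes MSK1, as higher (0.49) and MAPKAPK2, a kinase downstream of p38, as lower (-0.20). Among 13 tested SRF, ternary complex and CREB factors 0 were called for knockdown, and under imatinib 3 rose and 1 fell. ELK1, the ERK-phosphorylated partner of SRF, had 33.0, 32.1, 50.8 and 64.8 CPM in scramble, knockdown, imatinib-treated scramble and imatinib-treated knockdown and rose by 0.82 (SE 0.0999, edgeR adjusted p = 6.81e-07). It was still called with the offsets (0.61). NAB2, a corepressor and target of EGR1 (0.42), and SRF itself (0.40) rose and ATF1 fell (-0.26), none of them called with the offsets. For knockdown the offsets called MKL2, a coactivator of SRF, as higher (0.23).

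Of 14 tested genes often named as AP-1 targets, PLAU, the urokinase, rose with knockdown (0.97) from 1.42 to 3.35 CPM and under imatinib from 2.64 to 4.39. GJA1, a gap junction protein (-0.76), and VIM, vimentin (-0.23), fell, and 11 were not called. Under imatinib LMNA, which encodes lamins, rose (0.35; not called with the offsets) and 0 fell. With the offsets TGFB1, a growth factor gene, was called as lower (-0.27). For knockdown the offsets called GCLC (0.25), LGALS1 (0.23) and LMNA (0.17) as higher. The medians were 0.09 for knockdown and 0.08 for imatinib, and the genes MMP1, MMP3, MMP9 and HMOX1 lay under 1 CPM in all libraries.

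The genes with the pattern most like that of the members with the widest range were found by the Euclidean distance of log2 CPM, centred on each gene's mean over the 4 libraries, among 10105 genes whose mean level reached 5 CPM. For IER3, SWI5 was nearest (distance 0.0914) at 10.2, 15.5, 13.1 and 20.9 CPM in scramble, knockdown, imatinib-treated scramble and imatinib-treated knockdown, then GAMT (0.117). For JUND, CAPN15 was nearest (0.0289) at 42.3, 36.8, 60.9 and 74.3 CPM, then AHDC1 (0.0517). With 4 libraries, small distances are a description only.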

How the data were processed

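Libraries that keep strand were made from 3 µg of total RNA after removal of ribosomal RNA, per the labels' protocols. The submitters' processing notes name FastQC, HISAT2, HTSeq 0.6.1 and GRCh38. For the strand setting and annotation release of the counting, nothing was found in the labels or headers. Per the file headers, the authors deposited whole-number read counts per gene, used as deposited, and FPKM columns that were treated as a score because 6 genes are negative. Gene positions, exons and GC content came from GENCODE 29 on GRCh38 (28329 of 28482 genes matched).

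Counts were tested with edgeR 4.0.16 (R 4.3.3; glmQLFit, glmQLFTest, TMM), both factors in the model, over genes that reached 1 CPM in 2 or more libraries, with a threshold of 0.05 on the adjusted p; 1 residual and 33.8 prior degrees of freedom. The additive design was used because no group has a replicate. Log2 ratios used a prior count of 2. The fit was checked on simulated data. Alternatives were DESeq2 1.42.0, limma 3.58.1 on log2 of the FPKM score, other scalings and filters, thinned counts, GC and length offsets (mgcv 1.9.3) and left-out libraries. The members, lists and alternatives were chosen with earlier results of these data known. Besides the 10 members, named genes were TCF7, of each list up to 4 called for each factor by largest change, and the 2 genes most like each of the 2 widest-ranging members; LYZ, genes named to say that they were at a low level, or called only with the offsets, were chosen after their values were seen. Some genes that the rule names are left out of the text.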

Additional observations from a re-analysis of the deposited data

Results flagged for a closer look

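JUND and IER2 stood out because their knockdown ratios had opposite signs in the 2 imatinib states, with counting intervals that exclude 0 in each. Those of IER2 did so narrowly, at -0.2649 to -0.0088 without and 0.0014 to 0.1911 under imatinib. The intervals do not cover the choice of scaling. Under imatinib the median knockdown ratio of all tested genes was 0.0198 with TMM and 0.0083 with DESeq2 size factors. For JUND the knockdown ratio under imatinib was higher than that without by 0.54 on the log2 scale (-0.22 without and 0.31 under imatinib), and for IER2 by 0.23 (-0.14 and 0.10). These differences rest on 1 library per group and were not tested. How often all tested genes show such a change of sign was not counted. With the GC content and length trend removed the differences were 0.18 and 0.03. JUND then had ratios of -0.08 without and 0.10 under imatinib, and IER2 -0.07 and -0.04, so the opposite signs were lost for IER2. JUND kept them with smaller ratios. No counting interval was computed with the trend removed, so whether those ratios still exclude 0 is not known.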

How the results depend on the processing

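Knockdown called 949 genes and 2 members. It called 272 and 1 with DESeq2, 195 and 1 with limma on log2(FPKM + 0.1), 162 and 1 with limma on log2(FPKM + 1), 1677 genes with GC and length offsets, and 0 and 0 with edgeR without the term for imatinib (818 genes at an unadjusted p under 0.05), which with 1 library left out called 34 to 759 genes and 0 to 2 members. Imatinib called 2780 genes and 6 members. It called 1003 and 3 with DESeq2, 1094 genes with limma at 0.1 and 904 at 1, 766 and 1 with the offsets, and 0 and 0 with edgeR without the term for knockdown (2651 genes at an unadjusted p under 0.05), which with 1 library left out called 0 to 579 genes and 0 to 3 members. At a 1.5-fold limit in place of 2-fold, 1 member in place of 0 was past it for knockdown without and 1 in place of 0 under imatinib, and 2 in place of 0 for imatinib in scramble and 4 in place of 1 in knockdown cells. Other scalings, both filters and thinning kept all counts within 1.5 times. Among the tested log2 fold changes, signs changed for effects that were not called with all libraries and both terms: FOSL1 for imatinib with the offsets (-0.15), IER2 for knockdown without the imatinib term (0.0112), and, over the fits with 1 library left out, for knockdown JUN (-0.26 to 0.36), JUNB (-0.30 to 0.47), JUND (-0.48 to 0.52), EGR1 (-0.22 to 0.0726) and IER2 (-0.51 to 0.39), and for imatinib FOS (-0.45 to 0.14), FOSL1 (-0.0306 to 0.34) and FOSL2 (-0.14 to 0.47). Among the ratios of single libraries, removal of the GC and length trend turned FOSL1 for imatinib in knockdown cells (0.32 to -0.12), JUND for imatinib in scramble cells (0.48 to -0.00), IER2 for knockdown under imatinib (0.10 to -0.04) and the JUNB difference (0.20 to -0.06); the FOSL2 ratio for imatinib in knockdown cells (0.04 to -0.13), and 3 ratios near 0 under thinning, changed sign within their counting intervals. No paired analysis was possible because each group has 1 library and the labels give no replicate numbers. FOS and FOSB, with 22 to 51 counts, are limited by depth.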
